A study of Danio rerio with 2 samples.

Results

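The genes described here are the potassium channel genes of the zebrafish, Danio rerio, taken as every gene whose symbol begins with kcn, whatever the case of its letters. They include the accessory subunits that share the prefix, so the set holds Kv channel-interacting proteins and beta subunits as well as the pores themselves. Of the 25435 features of the count matrices, 124 carried such a symbol, and 78 of these reached the minimum of 50 unique molecular identifiers (UMIs) over the cells of both libraries together. The other 46 stayed below it. Just inside the minimum lay KCNJ10 with 60 UMIs and kcnk4a with 61, and just outside it lay kcnn4 with 49, and kcne4 and kcnj12b with 48 each. The members were chosen by symbol and count, and no value of a cell type or genotype entered the choice.

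Cells that express gpr85, an orphan G protein-coupled receptor gene, were isolated as live eGFP-positive cells from dissociated adult brain by fluorescence sorting and profiled one by one from the 3 prime ends of their transcripts. Each genotype gave 1 library. The control library came from gpr85Gal4/+ fish, with the Gal4 allele on 1 chromosome, and the knockout library from gpr85GAL4/GAL4 fish, with it on both. Both groups therefore carry the Gal4 allele, no library came from fish without it, and neither the exact age nor the number of fish per library is given in the sources used here. With 1 library per genotype there is no test of any difference between genotypes. Intervals in parentheses are exact 95% intervals (Poisson for levels, conditional binomial for ratios, Clopper-Pearson for shares), and they cover counting error only.

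Potassium channels let potassium ions leave the cell along their gradient, which returns the membrane to rest after a spike and sets how easily the next one starts. Voltage-gated (Kv) channels open on depolarisation, calcium- and sodium-activated channels open on ion entry, inward rectifiers (Kir) and tandem-pore (K2P) channels hold the resting potential, and cytosolic or auxiliary subunits tune the gating and trafficking of the pores. Cerebellar granule cells, whose markers most cells of this sort carry, are known in mammals for a strong transient A-type current carried by Kv4 channels. The roles given below are those known from mammals unless another species is named. Fish often hold a pair of copies, a and b, where mammals have 1 gene.

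A barcode counted as a cell from 1000 UMIs and 500 detected genes upward, provided that mitochondrial transcripts made up no more than 15% of its UMIs, which left 4091 control and 3231 knockout cells with medians of 2585 and 2844 UMIs. The 2 libraries shared 8 cell barcodes. Levels are UMIs of a gene for every 1000000 UMIs of a population (CPM), always given for the control library first and the knockout library second; 1 UMI stands for 1 molecule whatever the gene's length. Cells were sorted into populations by marker lists that hold no kcn gene, and the numbers of markers and UMIs required were set after marker counts had been seen. Granule-like cells made up 67.6 and 78.5% of cells, cells with gsg1l and lmx1al 11.2 and 4.61%, and the other populations held between 19 and 151 cells per library. Granule-like cells were those with enough granule cell markers that fell in no other population. These markers summed to 4981 and 5086 CPM in them, against 449.8 and 1128 CPM in GABAergic neuron-like cells, where the GABAergic markers summed to 6763 and 7144 CPM. They were nearly as high in gsg1l/lmx1al (4157 and 4273 CPM), immature neuron-like (4406 and 3675 CPM) and galn cells (3775 and 3848 CPM). The list thus does not set granule-like cells apart from these. In uts1, habenula neuron-like and glia-like cells it summed to at most 1355 CPM. Glia-like cells were those with enough microglia markers or enough radial glia markers. The microglia list summed there to 41107 and 33057 CPM and the radial glia list to 5751 and 28802 CPM, so their make-up differed between libraries. gpr85 itself gave 145 and 108 CPM, a log2 ratio of -0.42 (-0.52 to -0.32); how 3 prime reads lie relative to the inserted Gal4 is not given in the sources used here, so its level is no check of the labels.

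A few genes carried most of the potassium channel transcripts. Members together made up 0.892% and 0.887% of all UMIs in cells, and in granule-like cells 8849.6 and 8876 CPM. There, kcnd2 and kcnma1a alone held 43.4% and 45.5% of the members' UMIs, and the leading 6 genes held 71.8% and 73.4%. In contrast, 37 and 41 of the 78 members stood under 10 CPM. The members' summed level was 11383 and 10914 CPM in gsg1l/lmx1al cells, 11066 and 12944 CPM in habenula neuron-like cells and 2401 and 1289.8 CPM in the 23 and 35 glia-like cells, the lowest of the 8 populations in both libraries. Kv4 genes were the largest family in granule-like cells with 33.2% and 33.9% of the members' UMIs, followed by BK genes with 19.1% and 18.9% and Kv3 genes with 16.6% and 16.7%.

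**Figure D1:**
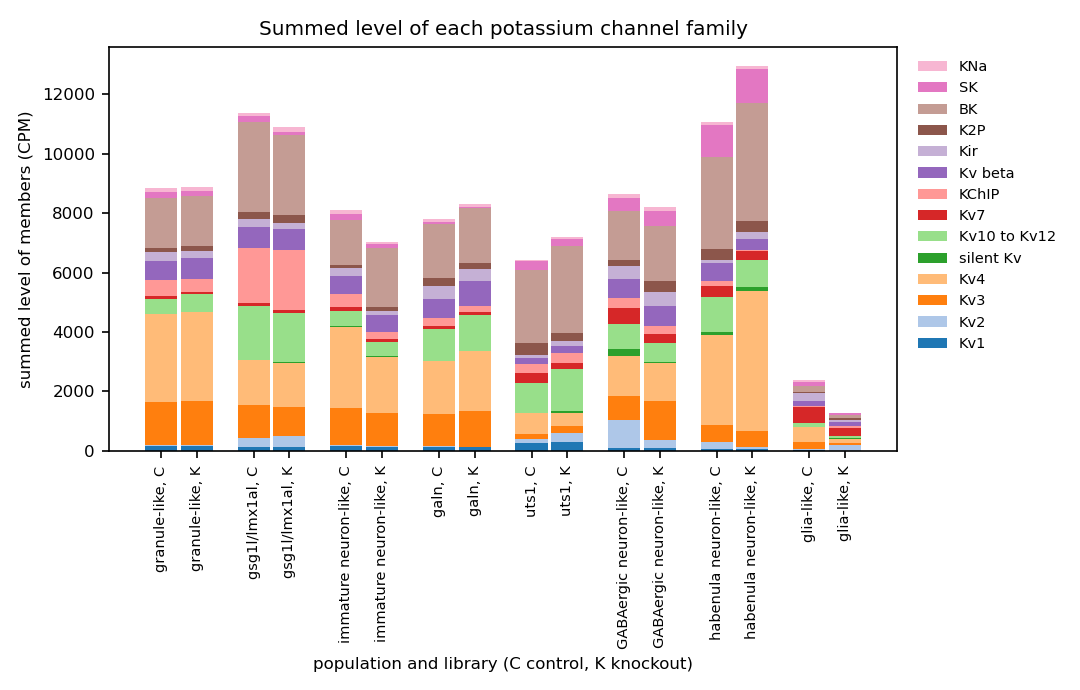
Stacked bars give the summed level, in CPM, of each potassium channel family in 8 marker-gated populations, with the control (C) and knockout (K) libraries side by side. Kv4 (light orange), BK (brown) and Kv3 (orange) fill most of the granule-like bars, the gsg1l/lmx1al bars add a wide KChIP (pink) and Kv10 to Kv12 (light green) band, and the glia-like bars are the shortest.

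Of the Kv4 channels, which carry the transient A-type current, kcnd2 led in granule-like cells at 2173 CPM (2139.9 to 2206) and 2381 CPM (2347 to 2416). A UMI of kcnd2 was seen in 91.4% and 90% of granule-like cells against 21.7% and 14.3% of glia-like cells, at median depths of 2473 and 2796 UMIs per granule-like cell and 4385 and 6294 UMIs per glia-like cell. After each cell was thinned to 1000 UMIs the shares were 77.9% and 75.2% against 17.4% and 11.4%. Granule-like cells had the highest kcnd2 level of the 8 populations in both libraries. kcnd3 stood at 761 and 621 CPM in granule-like cells and higher, at 1439 CPM (1306 to 1583) and 2641 CPM (2513 to 2775), in habenula neuron-like cells. In contrast, kcnd1 was almost confined to a pair of small populations, with 554 and 248 CPM in habenula neuron-like and 139 and 240.1 CPM in GABAergic neuron-like cells, against 3.81 and 2.83 CPM in granule-like cells and at most 5.84 CPM in gsg1l/lmx1al, immature neuron-like, galn and uts1 cells. Glia-like cells gave 2 and 0 UMIs of kcnd1.

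The Kv channel-interacting proteins (KChIPs) are calcium-binding subunits that bind the Kv4 cytoplasmic end and raise its surface level. Their composition differed between granule-like and gsg1l/lmx1al cells. kcnip3b stood at 1676 CPM (1612 to 1741) and 1852 CPM (1741 to 1969) in gsg1l/lmx1al cells, below kcnma1a alone among the members, and at 109 and 166 CPM in granule-like cells. It was seen in 93.0% and 94.0% of gsg1l/lmx1al cells, in 12.4% and 16.6% of granule-like cells and in 0% and 5.71% of glia-like cells, and in 77.0% and 80.5%, 6.94% and 8.51% and 0% of them at 1000 UMIs per cell; gsg1l/lmx1al cells had median depths of 3023 and 3645 UMIs. The reverse held for kcnip1b, with 211 and 139.6 CPM in granule-like and 22.1 and 5.39 CPM in gsg1l/lmx1al cells, and for KCNIP1, with 28.8 and 22.5 CPM and 5.84 and 0 CPM. KCNIP4 differed less, at 159 and 103 CPM against 152 and 138 CPM. dpp6b, which codes for a transmembrane partner of Kv4, was also higher in gsg1l/lmx1al cells, at 1528 and 1017 CPM against 551 and 421 CPM, whereas kcnd2 itself was lower there, at 1207 and 1311 CPM.

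**Figure D2:**
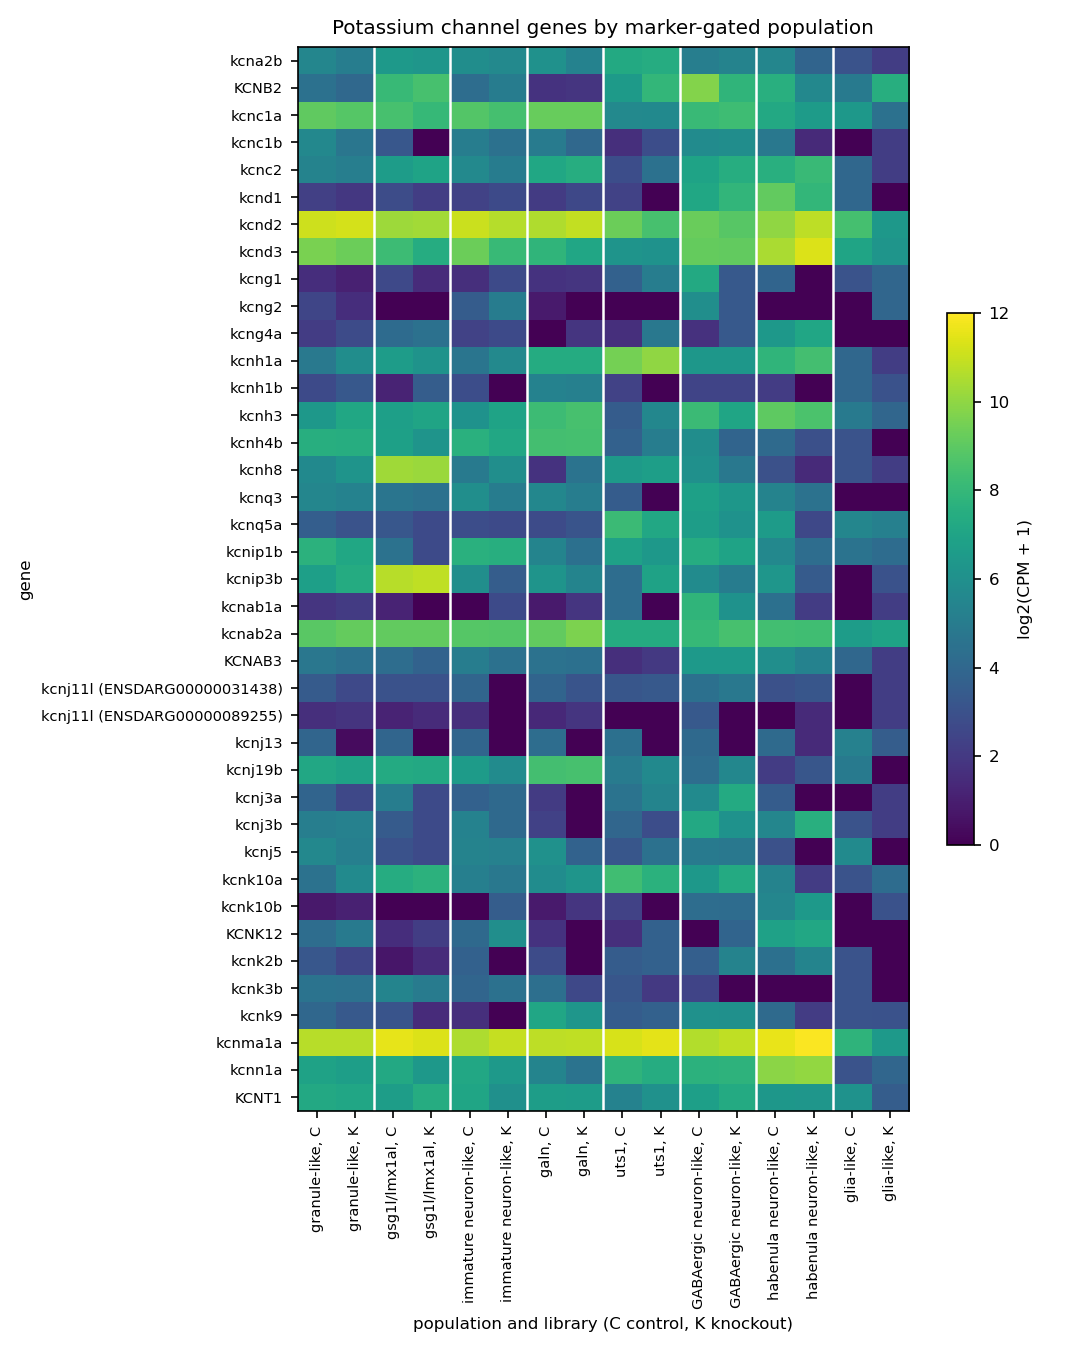
Each row is 1 of 39 members named by the rules given in the methods and each column a population in the control (C) or knockout (K) library, with colour giving log2(CPM + 1). kcnd2 and kcnma1a are bright in all neuron-like populations, and kcnd1 is bright only in the GABAergic and habenula neuron-like columns. kcnip3b and kcnh8 are brightest in the gsg1l/lmx1al columns and kcnh1a in the uts1 columns, and kcnj13 is dark in nearly all knockout columns.

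Kv3 channels close fast and allow narrow spikes at high rates. kcnc1a stood at 528 CPM (512 to 545) and 451 CPM (436 to 466) in granule-like and at 597 and 598 CPM in galn cells against 49.2 and 51.3 CPM in uts1 cells. kcnc2 was also low in uts1 cells, at 6.15 and 21.1 CPM, but in 4 populations it was more than 2-fold above its level in granule-like cells. It stood at 39.8 and 34.2 CPM in granule-like cells, 98.0 and 124 CPM in gsg1l/lmx1al cells and 139 and 179.6 CPM in galn cells. In GABAergic neuron-like cells it stood at 126 and 177 CPM, and in habenula neuron-like cells at 189 CPM (143 to 246) and 278 CPM (238 to 324). As a family, Kv3 summed to 1473 and 1483 CPM in granule-like cells and 172 and 238 CPM in uts1 cells. kcnc1b gave 47.2 and 25.1 CPM in granule-like cells, and kcnc4 no more than 1.05 CPM.

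Kv1 channels, which sit along axons and open at low voltage, were scarce. The 4 members summed to 163 and 165 CPM in granule-like cells, led by kcna1a at 81.5 and 95 CPM. kcna2b was highest in uts1 cells, at 158 CPM (125 to 197) and 169 CPM (128 to 219) against 44.6 and 32.5 CPM in granule-like cells, and kcna2a in galn cells, at 29.0 and 20.5 CPM; kcna1b gave 31.3 and 30.7 CPM in granule-like cells. Among the beta subunits, cytosolic proteins that bind Kv1, kcnab2a was the major form in granule-like cells at 490.1 and 571 CPM, with kcnab2b at 139 and 103 CPM. KCNAB3 and kcnab1a were highest by mean in GABAergic neuron-like cells, KCNAB3 at 89.0 and 86.1 CPM against 25.6 and 21.0 CPM in granule-like cells and kcnab1a at 228 and 68.0 CPM against 2.63 and 3.21 CPM. kcnab1b gave 4.08 and 3.09 CPM in granule-like cells.

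Kv2 channels carry the slow delayed rectifier current. KCNB2 gave 21.2 and 15.8 CPM in granule-like cells, 272 CPM (247 to 299.8) and 357 CPM (309.5 to 411) in gsg1l/lmx1al cells and 2.42 and 2.57 CPM in galn cells. The uts1, GABAergic and habenula neuron-like cells gave 92.2 and 244 CPM, 874 and 227 CPM and 189 and 47.0 CPM, so the level in these small populations differed between libraries by 2-fold or more. The silent subunits, which make no channel alone and combine with Kv2, were highest in small populations. The 4 members (kcnf1b, kcng1, kcng2 and kcng4a) summed to 10.3 and 9.13 CPM in granule-like cells, 253 and 31.7 CPM in GABAergic neuron-like cells and 105 and 136 CPM in habenula neuron-like cells. kcng4a accounted for most of the last value, with 84.5 and 136 CPM, and kcng1 for most of the GABAergic value in the control library, with 153 and 9.06 CPM.

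The kcnh genes code for EAG, ERG and ELK channels (Kv10 to Kv12), and all 13 kcnh symbols of the matrices were members. Their leading populations differed from gene to gene. kcnh8, an ELK gene, stood at 1256 CPM (1201 to 1313) and 1173 CPM (1085 to 1266) in gsg1l/lmx1al cells against 51.4 and 72.6 CPM in granule-like cells and 2.42 and 23.1 CPM in galn cells. kcnh1a, an EAG gene, stood at 715 CPM (642 to 794) and 1017 CPM (911 to 1132) in uts1 cells against 28.0 and 57.9 CPM in granule-like cells. It was also above granule-like cells in habenula neuron-like and galn cells, with log2 ratios of at least 2.54 and 1.51 in both libraries. kcnh4b and kcnh3, both ELK genes, were high in galn cells at 336 and 357 CPM and 297 and 367 CPM; kcnh3 also reached 514 and 389 CPM in habenula neuron-like cells, where kcnh4b gave only 16.9 and 6.71 CPM. kcnh5b was nearly restricted to habenula neuron-like cells, at 213 and 87.2 CPM against 1.97 and 1.29 CPM in granule-like cells, and kcnh5a had its highest level in GABAergic neuron-like cells, at 119 and 58.9 CPM. The ERG gene kcnh7 was spread more evenly, with 138 and 102 CPM in granule-like, 202 and 190.4 CPM in gsg1l/lmx1al and 196 and 251 CPM in galn cells. The remaining kcnh members (kcnh1b, KCNH2, kcnh2a, kcnh4a, kcnh6a and kcnh6b) lay between 2.1 and 8.87 CPM in granule-like cells.

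Kv7 channels carry the M current, a slow brake on repeated firing that muscarinic receptors release. kcnq3 stood at 44.7 and 38.4 CPM in granule-like cells and reached 112 and 81.5 CPM in GABAergic neuron-like cells. kcnq5a was highest in uts1 cells at 285 CPM (239 to 336) and 148 CPM (109 to 196) against 10.9 and 7.46 CPM in granule-like cells. Its paralog kcnq5b gave 0 and 0 UMIs in uts1 cells and was highest in glia-like cells, at 467 CPM (358 to 598) and 238 CPM (184 to 303), with 212 and 77.0 CPM in GABAergic and 172 and 188 CPM in habenula neuron-like cells. kcnq5b is 1 of 3 members whose highest level was in glia-like cells in both libraries, beside KCNJ10 and kcnj13. Microglia-like and radial glia-like cells are not told apart in these levels. kcnq1.2, from an epithelial and cardiac channel gene, gave 37.2 and 38.6 CPM in habenula neuron-like and 1.97 and 1.03 CPM in granule-like cells.

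Among channels opened by intracellular ions, the BK gene kcnma1a, whose channel responds to both calcium and voltage, was at 1669 CPM (1640.4 to 1699) and 1662 CPM (1633 to 1691) in granule-like cells, and its level was at least 1462 CPM in all 7 populations other than glia, in both libraries. It reached 3068 CPM (2872 to 3274) and 3948 CPM (3790.0 to 4111) in habenula neuron-like cells and 226 and 90.1 CPM in glia-like cells. A second BK feature, KCNMA1, has its own identifier and gave 22.2 and 20.4 CPM in granule-like cells; how reads shared by near-identical copies were counted is not given in the sources used here. The BK beta subunits kcnmb2 and KCNMB3 were below the minimum. Of the SK genes, gated by calcium alone, kcnn1a stood at 949 CPM (842 to 1067) and 1077 CPM (995 to 1163) in habenula neuron-like cells against 119.7 and 105 CPM in granule-like cells. kcnn3 gave 60.5 and 58.4 CPM in granule-like, 146 and 95.1 CPM in GABAergic neuron-like and 17.7 and 7.70 CPM in galn cells, and kcnn2 gave 59.4 and 69.4 CPM in uts1 cells. kcnn1b reached 57.1 and 99.7 CPM in GABAergic neuron-like cells. The sodium-activated channel gene KCNT1 gave 153 and 137 CPM in granule-like cells, and the separate feature kcnt1 gave 1.84 and 1.29 CPM.

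Of 28 Kir symbols, 13 were members. The highest in granule-like cells was kcnj19b, at 144 CPM (135 to 153) and 120.1 CPM (112 to 128), and it stood at 340.1 and 359 CPM in galn cells. GIRK genes, whose channels are opened by G protein beta-gamma subunits, were present at lower levels in granule-like cells: kcnj5 at 46.9 and 34.7 CPM, kcnj3b at 33.9 and 37.2 CPM, kcnj3a at 13.7 and 5.14 CPM, KCNJ6 at 9.47 and 9.26 CPM and kcnj9 at 2.63 and 2.31 CPM. kcnj3b was scarce in galn cells, at 5 and 0 UMIs, and stood at 148 and 68.0 CPM in GABAergic neuron-like cells. kcnj19a was highest in GABAergic neuron-like cells, with 128 and 72.5 CPM there and 2.1 and 3.73 CPM in granule-like cells. The ATP-sensitive channel genes kcnj11 and the pair of features called kcnj11l gave between 2.1 and 9.73 CPM in granule-like cells. KCNJ10, the main glial Kir gene, gave 82.8 CPM (41.3 to 148) and 36.0 CPM (17.3 to 66.3) in glia-like cells and 0.526 and 2.31 CPM in granule-like cells. kcnj1a.1, from an epithelial channel family, gave 0.789 and 2.06 CPM in granule-like cells.

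K2P channels carry the background potassium current. kcnk10a, of the mechano- and lipid-sensitive TREK group, was at 22.2 and 51.9 CPM in granule-like cells, 174 and 207 CPM in gsg1l/lmx1al cells and 314 CPM (266 to 367) and 202 CPM (157 to 257) in uts1 cells. KCNK12, of the halothane-inhibited THIK group, was highest in habenula neuron-like cells at 115 CPM (79.6 to 161) and 146 CPM (117 to 180.0), with 18.7 and 28.5 CPM in granule-like and 1.95 and 3.59 CPM in gsg1l/lmx1al cells. Of the acid-sensitive TASK genes, kcnk9 was highest in galn cells, at 137 and 77.0 CPM against 15.0 and 9.26 CPM in granule-like cells. kcnk3b was at 23.1 and 22.4 CPM in granule-like cells and gave 0 UMIs in habenula neuron-like cells of both libraries, where 3 UMIs, the floor used for a count of 0, correspond to 10.1 and 5.03 CPM. kcnk1b gave 38.9 and 40.5 CPM in granule-like and 115 and 75.5 CPM in habenula neuron-like cells. The others (kcnk10b, kcnk15, kcnk2b and kcnk4a) did not exceed 8.55 CPM in granule-like cells.

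Each population was then compared with granule-like cells within each library. A member was counted as higher or lower when it was at least 2-fold apart in the same direction in both libraries, with at least 50 UMIs in the compared populations together and at least 5 UMIs to be expected in the smaller one if the levels were equal. Genes scarce in granule-like cells can miss this last minimum, even where a small population holds them at a high level. The call has no test, and the same call over all genes is given as background. The marker lists, those of galn and uts1 cells among them, were chosen with earlier results of these data known. The counts are therefore a description of these populations. In gsg1l/lmx1al cells 5 of the 38 members compared were higher and 9 lower, against 2.77% higher and 5.4% lower of all genes. The genes highest there by this ratio were kcnh8, with log2 ratios of 4.61 (4.45 to 4.77) and 4.01 (3.85 to 4.18), KCNB2, with 3.69 (3.42 to 3.96) and 4.50 (4.17 to 4.83), and kcnip3b, with 3.94 (3.83 to 4.05) and 3.48 (3.36 to 3.60). kcnip1b, KCNK12 and kcnj5 led the members that were lower; the ratios of kcnip1b were -3.26 (-3.79 to -2.77) and -4.70 (-6.98 to -3.14).

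In galn cells 4 of 37 members were higher and 12 lower, against 3.27% higher and 7.29% lower of all genes. The 4 were kcnc2, kcnh1a, kcnh3 and kcnj19b, with ratios for kcnc2 of 1.81 (1.53 to 2.08) and 2.39 (1.99 to 2.78). In uts1 cells 4 of 37 were higher and 18 lower, against 5.76% higher and 9.37% lower. kcnh1a, at 4.67 (4.42 to 4.93) and 4.14 (3.93 to 4.34), KCNB2, kcna2b and kcnk10a were higher, while kcnc1a, kcnd3 and kcnd2, major pores of granule-like cells, were all lower, kcnc1a at -3.42 (-4.07 to -2.85) and -3.14 (-3.92 to -2.45). In GABAergic neuron-like cells 4 of 34 were higher (KCNAB3, kcnc2, kcnk10a and kcnq3) and 5 lower (kcna1a, kcnd2, kcnh4b, KCNIP4 and kcnj19b), against 5.62% higher and 7.51% lower. kcnd2 was at -1.81 (-1.99 to -1.63) and -2.32 (-2.61 to -2.05). Other members, kcnab1a, kcnd1, kcnj19a, kcnh5a, kcnq5b and KCNB2 among them, were also more than 2-fold higher there in both libraries but were not compared. Few of their UMIs would be expected there at equal levels, so the count of 4 leaves them out. In habenula neuron-like cells 7 of 38 were higher and 11 lower, against 6.13% higher and 13.8% lower. kcnd1 stood highest, at 7.18 (6.61 to 7.81) and 6.46 (5.80 to 7.17), and kcnn1a was at 2.99 (2.79 to 3.18) and 3.36 (3.21 to 3.51).

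Glia-like cells had no member called higher and 24 of 27 called lower, against 5.16% higher and 34.6% lower of all genes; the members led by glia-like cells (kcnq5b, KCNJ10 and kcnj13) were not compared, since few of their UMIs would be expected there at equal levels. For kcnq5b, glia-like cells nonetheless gave 62 and 66 UMIs, at 467 and 238 CPM against 7.36 and 5.91 CPM in granule-like cells, so the count of 0 does not cover genes found mainly in glia. Immature neuron-like cells had 0 of 31 higher and 0 lower, against 0.59% higher and 0.398% lower. None of the 31 members compared was thus at least 2-fold apart in both libraries in these cells, which number 121 and 35; the other 47 members did not have the UMIs for the comparison. Over the 7 populations together the calls came to 24 higher and 79 lower, and glia-like cells gave 24 of the 79. The shares of all genes differed between these populations, from 0.59% to 6.13% higher and from 0.398% to 34.6% lower. No pooled share is given, so nothing is read from the totals. The minimum of expected UMIs leaves out genes scarce in granule-like cells, which takes away higher calls more than lower ones. Among all genes, too, lower calls outnumbered higher ones in every population except immature neuron-like cells. Of the 78 members, 48 had the same highest population in both libraries, and that population was GABAergic neuron-like for 16, habenula neuron-like for 13, galn for 6, gsg1l/lmx1al for 5, uts1 for 3, glia-like for 3 and granule-like for 2, kcnd2 among them. Small populations hold few UMIs, so a highest level there is less certain than one in granule-like cells. For kcnj13 the glia-like cells held 5 and 3 UMIs. The same count over all genes is not given, so the order of populations is not read as a trait of potassium channel genes.

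**Figure D3:**
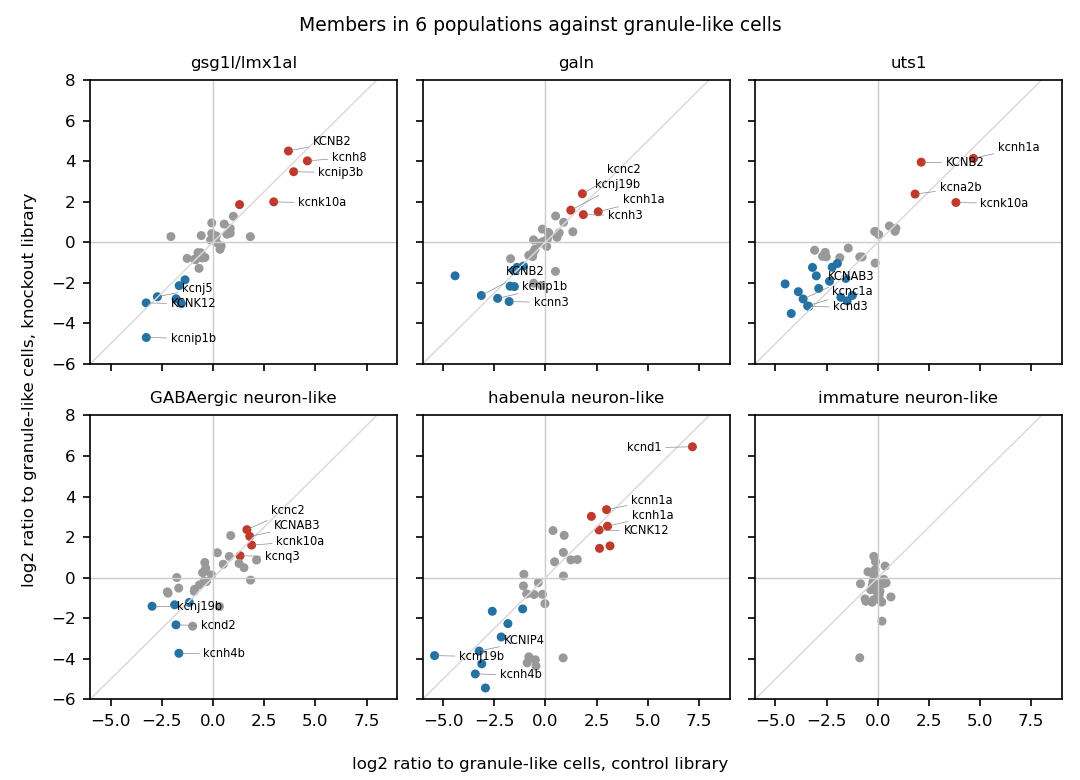
Each point is a member, placed by its log2 ratio of a population to granule-like cells in the control library (horizontal axis) and the knockout library (vertical axis), with members called higher in red, lower in blue and others in grey; a member with 0 UMIs in 1 library of the population is not drawn. kcnd1 in habenula neuron-like cells and KCNB2, kcnh8 and kcnip3b in gsg1l/lmx1al cells lie far up the diagonal, and no point of the immature neuron-like panel is coloured.

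Granule-like cells were divided further by 5 short marker lists and compared with the granule-like cells outside each list. These lists came from clusters of the same cells, some with kcnj3b or kcnd3 among their leading genes, so all counts and values here, the shares of all genes included, are a description from which nothing is read. In SYT2/scn4ba cells (45 and 74 cells), 1 of 31 members was higher and 3 were lower, against 0.569% and 1.25% of all genes. kcnj3b was at 114 and 132 CPM inside against 31.8 and 33.3 CPM outside. kcnc2, kcnd3 and kcnip3b were the 3 that were lower, kcnd3 at 207 and 185 CPM inside against 775 and 639 CPM outside. In phldb1a/inhbb cells (29 and 35), kcnd3 was at 1659 and 1546 CPM inside against 744 and 603 CPM outside, and 1 of 26 members was higher and 1 lower (kcnh4b), against 0.297% and 1.07%.

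In pax2a, pax5 and en1a cells (113 and 74), 0 of 35 members were higher and 2 lower (kcnd3 and KCNK12), against 0.209% and 1.04% of all genes, with kcnd3 at 344 and 92.0 CPM inside against 784 and 638 CPM outside. In nr2f1a cells (38 and 104), 0 of 28 were higher and only kcnip1b was lower, against 0.0709% and 0.496%, at 98.0 and 25.6 CPM inside against 213 and 148 CPM outside. Cells with at least 3 of 5 activity-regulated genes (417 and 692) had 0 of 54 members higher and 0 lower, against 0.419% and 0.193%. The member highest in them by ratio was kcnk3b, at 38.0 and 36.9 CPM inside against 19.7 and 16.2 CPM outside.

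Both copies were members for 16 duplicated genes. In granule-like cells the a copy held over 50% of the UMIs of the pair in both libraries for 10 of them and the b copy for 5. The largest difference between libraries there, for kcnj3a and kcnj3b, was 16.6 percentage points. The leading copy of several pairs differed between populations. For kcnj19 the a copy held 1.44% (0.827% to 2.33%) and 3.01% (2.03% to 4.3%) in granule-like and 87.5% (76.8% to 94.4%) and 61.5% (40.6% to 79.8%) in GABAergic neuron-like cells. For kcnj3 it held 28.7% (24.1% to 33.7%) and 12.16% (8.83% to 16.2%) in granule-like and 61.1% (35.7% to 82.7%) and 87.5% (61.7% to 98.4%) in uts1 cells, the latter from 18 and 16 UMIs. kcnk10a held 96.6% (92.7% to 98.7%) and 97.8% (95.9% to 99.0%) of its pair in granule-like cells and 48.0% (27.8% to 68.7%) and 3.77% (0.460% to 13%) in habenula neuron-like cells, where kcnk10b was the larger share. By contrast, kcnq5a held 100% (97.4% to 100%) and 100% (92.7% to 100%) of its pair in uts1 cells and 8.82% (3.31% to 18.2%) and 13.2% (6.49% to 22.9%) in glia-like cells.

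**Figure D4:**
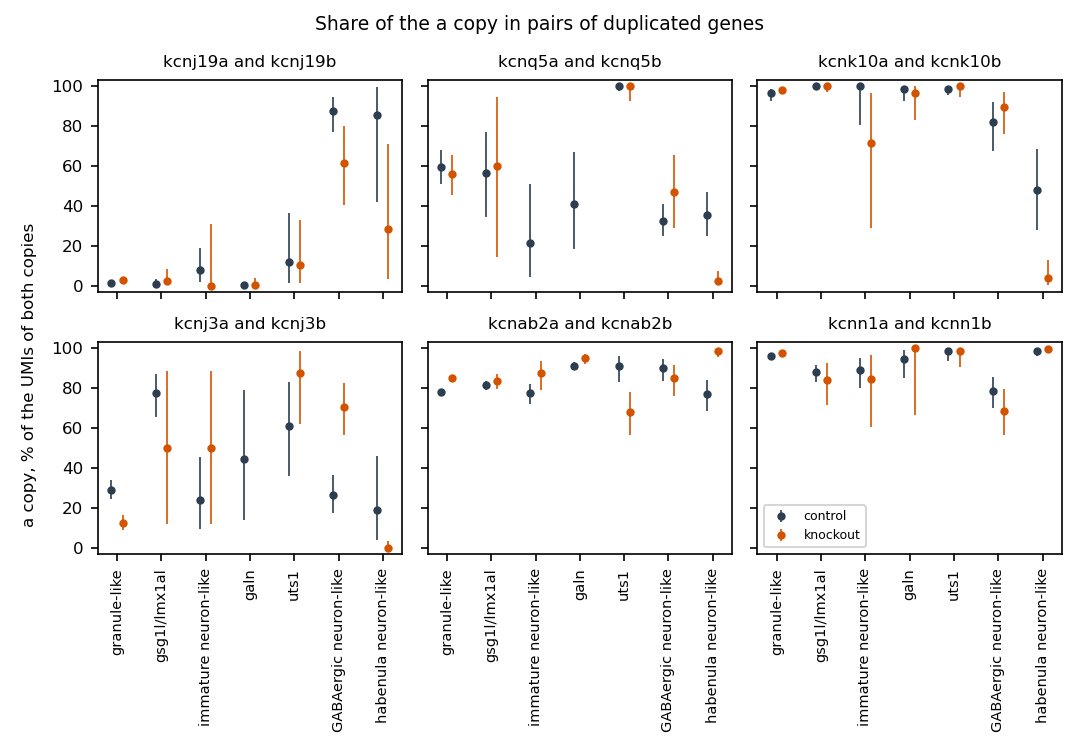
Points give the share of the a copy in the UMIs of both copies (%) for 6 pairs in 7 populations, in the control (dark) and knockout (orange) library, with exact Clopper-Pearson 95% intervals for counting error; populations with under 5 UMIs of the pair are left out. The kcnj19 share goes from 1.44% and 3.01% in granule-like cells to 87.5% and 61.5% in GABAergic neuron-like cells, and the kcnk10 share from 96.6% and 97.8% in granule-like cells to 48.0% and 3.77% in habenula neuron-like cells.

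Between the libraries, members over all cells were more often lower than higher in the knockout library. Of 78 members, 56 had a log2 ratio (knockout over control) below 0 and 22 above, with a median of -0.20 against -0.02 over all genes. At 2-fold or more, 3 members were higher, against a background of 3.54% of genes, and 10 were lower, against 3.16%. Populations differed in share between the libraries at the same time: gsg1l/lmx1al cells were 11.2 and 4.61% of cells, galn cells 3.69 and 1.49%, GABAergic neuron-like cells 1.15 and 0.588% and habenula neuron-like cells 0.660 and 2.41%. When CPM was averaged over populations with the same weights in both libraries, 8 of the 10 lower calls and 0 of the 3 higher calls were left. Averaging did not hold equal the make-up inside a population, or among cells in no population or in several. Such unassigned cells gave 176 and 20 UMIs of kcnq5a, 57 and 4 of a kcnj11l feature and 25 and 2 of kcnt1, but only 4 and 2 of kcnk4a. The share of all genes called after averaging is not given. The part of cell make-up in the calls that were left was not tested. Genotype and library cannot be told apart.

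The lower member with the widest gap was kcnj13, at 218 and 7 UMIs and 15.8 CPM (13.8 to 18.1) and 0.624 CPM (0.251 to 1.29), a log2 ratio of -4.67 (-6.0 to -3.60). Its channel, an inward rectifier of epithelia, is also known in zebrafish for a role in fin growth and skin pattern. Its UMIs were spread over populations rather than held by one. The control library gave between 14.2 and 37.6 CPM in each of the 8 populations, and the knockout library 0 UMIs in 5 of them. In barcodes with under 100 UMIs, which hold free RNA, kcnj13 stood at 13.1 and 1.37 CPM. Pigment cell markers, 7 of 7 found, summed to 2.37 and 1.80 CPM in granule-like cells, with aox5 at 0 in both libraries, and choroid plexus and ependyma markers, 4 of 4 found, to 33.7 and 55.4 CPM; their part in the result was not tested. A UMI of kcnj13 was seen in 3.04% and 0.0788% of granule-like cells and 13% and 8.57% of glia-like cells, and at 1000 UMIs per cell in 1.45% and 0% and in 0% of glia-like cells.

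The other 9 lower members were kcnf1b, kcng1, kcng2, kcnq5a, kcnab1a, 1 of the kcnj11l features (ENSDARG00000089255), kcnk9, kcnk4a and kcnt1. For several, many UMIs lay in populations that held fewer knockout cells, and the level within those populations was lower in the knockout library as well. kcng1, at 11.1 and 4.19 CPM and a ratio of -1.41 (-1.91 to -0.93), gave 67 and 2 UMIs in GABAergic neuron-like cells, or 153 and 9.06 CPM. kcnab1a, at 13.4 and 5.35 CPM and -1.33 (-1.78 to -0.90), gave 100 and 15 UMIs there, or 228 and 68.0 CPM. kcnq5a, at 36.4 and 14.4 CPM and -1.33 (-1.60 to -1.07), gave 139 and 49 UMIs, or 285 and 148 CPM, in uts1 cells and 176 and 20 UMIs in cells outside all gates or in several. kcnk9, at 30.1 and 13.7 CPM and -1.13 (-1.41 to -0.86), gave 170 and 30 UMIs in galn cells, or 137 and 77.0 CPM. Averaged over populations the ratios were -1.07 for kcng1, -1.03 for kcnab1a and -1.20 for kcnq5a, all still past 2-fold, and -0.70 for kcnk9 and -0.84 for kcng2, which were not. In the kcnj11l feature 1 control cell that matched several gates held 26 of the 82 control UMIs; without the fullest cell of each library the log2 ratio was -0.93 (-1.68 to -0.22) in place of -1.31 (-1.99 to -0.67), under the 2-fold line. The remaining 4 ratios were -1.90 (-2.94 to -0.98) for kcnf1b, -1.09 (-1.67 to -0.53) for kcng2, -1.32 (-2.27 to -0.46) for kcnk4a and -1.34 (-2.14 to -0.59) for kcnt1.

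The 3 members that were higher over all cells differed in where their UMIs lay. Habenula neuron-like cells, 27 in the control library and 78 in the knockout library, held 26.9% and 48.2% of the UMIs of kcng4a, 27.7% and 58.6% of those of kcnk10b and 15.4% and 24.1% of those of KCNK12. kcng4a, at 6.76 and 15.0 CPM and 1.15 (0.77 to 1.53), gave 25 and 81 UMIs in these cells. kcnk10b, at 3.42 and 7.76 CPM and 1.18 (0.65 to 1.73), gave 13 and 51 UMIs. KCNK12, at 16.1 and 32.2 CPM and 1.00 (0.76 to 1.25), gave 34 and 87 UMIs there and 142 and 222 UMIs, or 64.3% and 61.5% of its UMIs, in granule-like cells. As levels within habenula neuron-like cells, the same genes stood at 84.5 and 136 CPM, 43.9 and 85.5 CPM and 115 and 146 CPM.

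Within granule-like cells, 59 members had at least 50 UMIs; 37 were below 0 and 22 above, with a median log2 ratio of -0.16 against -0.04 over all genes. Here 2 members were 2-fold or more higher, against a background of 1.95%, and 3 were lower, against 2.44%. The major genes lay close to equality: kcnma1a at -0.01 (-0.04 to 0.03), kcnd2 at 0.13 (0.10 to 0.16), kcnc1a at -0.23 (-0.29 to -0.16) and kcnd3 at -0.29 (-0.35 to -0.24). kcnk10a, at 22.2 CPM (19.0 to 25.8) and 51.9 CPM (47.0 to 57.3), had a ratio of 1.22 (0.96 to 1.49). kcnh1a, at 28.0 CPM (24.4 to 32.0) and 57.9 CPM (52.6 to 63.5), had 1.05 (0.81 to 1.29). Neither call held in every processing: with 1 more marker required per population the ratios were 0.88 and 0.73.

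Of the members lower in granule-like cells, kcnj13 gave 108 and 2 UMIs, with a ratio of -5.79 (-8.85 to -3.90). kcnj3a gave 104 and 40 UMIs, or 13.7 CPM (11.2 to 16.6) and 5.14 CPM (3.67 to 7.0), with -1.41 (-1.98 to -0.87); kcng2 gave 35 and 15 UMIs, with -1.25 (-2.23 to -0.34), and sat exactly at the minimum of 50 UMIs. The other copy of the kcnj3 pair, kcnj3b, was at 0.13 (-0.12 to 0.38). Smaller differences whose intervals left out 0 included kcnh3 at 0.80 (0.65 to 0.94), kcnip3b at 0.61 (0.48 to 0.73), kcnip1b at -0.60 (-0.71 to -0.48), KCNIP4 at -0.63 (-0.76 to -0.50) and kcnc1b at -0.91 (-1.17 to -0.66). Marker lists moved in the same cells. The 5 activity genes, all higher in the knockout library, summed to 1739.8 and 3666 CPM, the 3 nr2f1a-list genes to 67.5 and 130.0 CPM, the 5 immature neuron markers found to 429 and 222 CPM and the Purkinje cell markers, 7 of 7 found, to 1562 and 888 CPM, with 2 of the 7 higher and 5 lower in the knockout library; none of these genes was at 0. The 2 uts1-list genes, both higher in the knockout library, summed to 19.5 and 36.0 CPM. Both gsg1l/lmx1al-list genes were lower in the knockout library and summed to 98.2 and 33.7 CPM. Within cells below 3 activity genes, kcnk10a was at 23.4 and 50.7 CPM and kcnh1a at 28.5 and 63.9 CPM. Such cells can still differ in activity between the libraries. The part of activity and of the other lists in these differences was not tested.

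**Figure D5:**
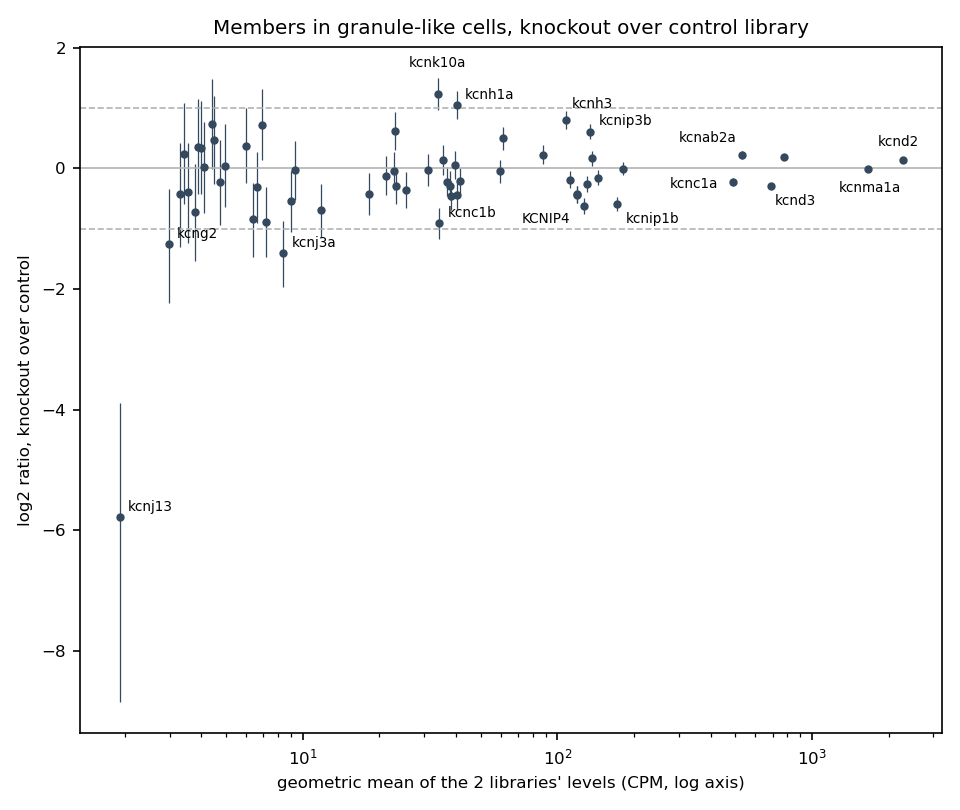
Each point is 1 of the 59 members with at least 50 UMIs in granule-like cells, placed by the geometric mean of its level in the 2 libraries (CPM, log axis) and its log2 ratio of knockout over control, with 95% exact conditional binomial intervals for counting error. Dashed lines mark 2-fold: kcnk10a and kcnh1a lie above the upper one, kcnj13, kcnj3a and kcng2 below the lower one, and the most abundant members lie near 0.

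In gsg1l/lmx1al cells 27 members had at least 50 UMIs, and their median log2 ratio was -0.13 against -0.01 over all genes, with 17 below 0 and 10 above. No member was 2-fold higher, against a background of 1.22%, and 1 was lower, against 3.4%. That member was again kcnj3a, at 51 and 3 UMIs, with a ratio of -2.62 (-4.94 to -0.99); it was not called when doublets were removed. Of the genes highest in these cells against granule-like cells, kcnh8 and kcnip3b differed little between libraries, with ratios of -0.10 (-0.23 to 0.03) and 0.14 (0.04 to 0.25). KCNB2, also among them, had 0.39, with an interval that left out 0. The partner gene dpp6b, higher in these cells as well, had -0.59 (-0.72 to -0.46). kcnn1a, at 152 and 82.6 CPM, had -0.88 (-1.37 to -0.42), and kcnd3, at 295 and 172 CPM, had -0.78 (-1.11 to -0.45).

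A list of channel partners and genes of the ion gradient held 28 symbols, of which 25 were found and 24 features had at least 50 UMIs. Over all cells 2 of these were 2-fold or more higher in the knockout library and 0 lower, against 3.54% and 3.16% of all genes, with a median log2 ratio of 0.15 against -0.02. Both were sodium pump alpha subunit genes, whose pump restores the potassium gradient the channels use. atp1a3b gave 164 and 1113 UMIs, a ratio of 3.06 (2.82 to 3.30), and in granule-like cells 5.39 and 95.1 CPM. The fullest knockout cell held 108 of the 1113 UMIs. In barcodes with under 100 UMIs atp1a3b stood at 40.0 and 63.3 CPM, against 11.9 and 99.2 CPM over all cells. atp1a1b gave 259 and 505 UMIs, a ratio of 1.26 (1.04 to 1.48). Glia-like cells, 23 and 35 in number, held 137 and 381 of these UMIs, at 1031 and 1373 CPM against 3.42 and 4.24 CPM in granule-like cells. The alpha subunit gene atp1a3a was at 449.5 and 493 CPM, a ratio of 0.13. Of the Kv4 partners, dpp6a gave 366 and 411 CPM and dpp6b 763 and 521 CPM over all cells. Against granule-like cells, and beside the shares of all genes given above for the same populations, the partners higher and lower were 6 and 0 of 19 in GABAergic neuron-like cells (5.62% higher and 7.51% lower of all genes), 5 and 3 of 20 in uts1 cells (5.76% higher and 9.37% lower), 3 and 3 of 19 in habenula neuron-like cells (6.13% higher and 13.8% lower) and 2 and 1 of 22 in gsg1l/lmx1al cells (2.77% higher and 5.4% lower). They were 0 and 4 of 21 in galn cells (3.27% higher and 7.29% lower), 0 and 1 of 18 in immature neuron-like cells (0.59% higher and 0.398% lower) and 0 and 13 of 15 in glia-like cells (5.16% higher and 34.6% lower). In glia-like cells atp1a1b and atp1b1a were not compared, since few of their UMIs would be expected there at equal levels. atp1b1a stood there at 565 and 508 CPM against 19.7 and 23.0 CPM in granule-like cells. The count of 0 higher thus does not cover genes found mainly in glia.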

How the data were processed

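Single-cell UMI counts were analysed for 1 control and 1 knockout library; groups came from the genotype in the labels. Per the file headers, the authors deposited raw counts of UMIs for each gene in each barcode, without removing any barcode; Cell Ranger 7.1.0, the GRCz11 build and Seurat are named in the submitters' processing notes. How reads shared by near-identical copies were counted is not given in the sources used here. Both libraries held cells by the limits given above, 13754829 and 11215916 UMIs in all.

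UMIs of each gene were summed per library and population in Python 3.11.15 with numpy 2.4.6, scipy 1.17.1 and pandas 2.3.3, and drawn with matplotlib 3.10.9. A population needed at least 2 markers and 5 UMIs of its list (3 markers for granule-like and immature neuron-like cells, 4 of the microglia or of the radial glia list for glia-like cells). Cells of several populations were set aside. Scrublet in scanpy 1.11.5 marked 1 and 7 doublets at its automatic threshold, so an alternative removed the 134 and 84 cells of highest score. Counting was tested on simulated data.

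The gene set and the lists were chosen with earlier results of these data known, while membership within the set followed symbol and count. Figures and text name the 10 members of largest ratio between libraries over all cells and in granule-like cells (from 100 UMIs), the 12 most abundant in granule-like cells, and the 3 highest and 3 lowest of each population, except a few genes not reported here; other members are given with their family. Marker lists of cell types outside the populations (endothelial, oligodendrocyte and erythrocyte) summed in granule-like cells to 10.4 and 5.91 CPM, 302 and 188 CPM, and 23.3 and 42.2 CPM. Free RNA was estimated at 4.05% and 3.89% of the UMIs of granule-like cells.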

Additional observations from a re-analysis of the deposited data

Results flagged for a closer look

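In KCNB2 and KCNT1 the ratio of knockout over control had opposite signs in granule-like and gsg1l/lmx1al cells, with both intervals leaving out 0; the difference between the populations was not tested. KCNB2, a Kv2 pore gene, had a log2 ratio of -0.42 in granule-like cells and 0.39 in gsg1l/lmx1al cells. In granule-like cells its 161 and 123 UMIs lay in 70 and 53 cells, and the fullest cells held 13 and 23. Intervals for counting error do not cover such clustering in few cells. The gsg1l and lmx1al markers summed to 98.2 and 33.7 CPM in granule-like cells, and their part in this ratio was not tested. KCNT1, a sodium-activated channel gene, had -0.16 and 0.75.

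Among the genes below the minimum of 50 UMIs, 3 were flagged for holding more UMIs in the knockout library than in the control library. They are not the only ones apart. Others went the same way, such as kcnj12a with 7 UMIs against 2 in the control library. Some went the opposite way, such as kcnip2 with 4 against 15 and kcnj1b with 3 against 14. kcnj1a.2 had 21 UMIs against 3 in the control library, and 1 knockout cell held all 21. kcnj1a.6 had 8 against 0, where 3 UMIs is the floor used for a count of 0. These 8 lay in 2 cells, and the fuller cell held 7. kcnk5a had 14 against 4, the 14 in 9 cells, of which the fullest held 5.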

How the results depend on the processing

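The counts of members 2-fold apart changed mostly with the minimum and the fold used. Shares of all genes at these other settings are not given, so nothing about the members is read from the counts below. No paired analysis was possible because each genotype had 1 library. With at least 20 UMIs per gene, 4 members were higher and 5 lower in granule-like cells and 5 lower in gsg1l/lmx1al cells. With at least 200, 5 were lower over all cells, 0 in granule-like and 0 in gsg1l/lmx1al cells. With no minimum beyond 1 UMI, 118 genes were kept, and 15 were higher and 18 lower over all cells, 15 and 12 in granule-like cells, and 13 and 17 in gsg1l/lmx1al cells. At 1.5-fold the counts were 6 and 22, 7 and 10, and 2 and 4. Averaging over populations left 0 members higher over all cells. In granule-like cells, 1 was higher with at least 2000 UMIs and 1000 genes per cell, 0 with 1 more marker per population, and 1 outside the 5 divisions of granule-like cells, where kcnk10a had a log2 ratio of 0.86. Removing doublets left 0 members lower in gsg1l/lmx1al cells. Requiring 10 expected UMIs left 1 member higher in GABAergic and 4 in habenula neuron-like cells. The divisions and the 10 expected UMIs were chosen after seeing the data. Of the other values, 103 of the main results and 288 for single genes or populations moved by less than the allowed spread, and none reversed. The cause of the changes was not tested. Other scalings moved the median of all genes by at most 0.04 on the log2 scale. Populations of 19 to 151 cells limit most of the contrasts, and intervals do not cover variation between fish.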

Other observations

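The 46 genes under the minimum included 15 Kir, 12 K2P and 8 silent Kv symbols. Of the duplicated KCNT1 and KCNMA1 features, the forms in capitals and in lower case have separate identifiers in the files and were kept apart. In barcodes with under 100 UMIs, kcnd2 stood at 1098 and 1846 CPM and kcnma1a at 1192 and 1400.4 CPM. Among channel partners, atp1b1a, a sodium pump beta subunit gene, stood at 245 and 383 CPM in gsg1l/lmx1al cells against 19.7 and 23.0 CPM in granule-like cells. slc12a5a and slc12a5b, which code for neuronal potassium-chloride exporters, had different leading populations. slc12a5b stood at 242 and 584 CPM in GABAergic neuron-like cells against 29.6 and 41.7 CPM in granule-like cells, and slc12a5a at 20.5 and 24.1 CPM in uts1 cells against 204 and 185 CPM in granule-like cells.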
